A study of Arabidopsis thaliana with 4 samples.

Results

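The serine carboxypeptidase-like (SCPL) genes of Arabidopsis thaliana were followed in root tips of the sol2 mutant and of wild type. A gene was included if its probe set was paired with exactly 1 gene in the platform annotation and if that gene's symbol was SCPL and a number, in either case of letters. This gave 29 genes, each with 1 probe set, of 13356 genes with such a probe set on the array. The study hybridised biotin-labelled cRNA from total RNA to GeneChip arrays, with 2 arrays of sol2 root tips and 2 arrays of wild type root tips. Seedlings of both genotypes were 4 days old and had grown on MS medium at 23 °C in continuous light. The sources used here do not give the sol2 allele, the wild type accession or the number of plants behind each array. SOL2, also called CORYNE, encodes a membrane-bound receptor kinase-like protein that works with CLAVATA2 in the perception of CLE peptides, and the comparison asks how its loss affects gene expression at the root apex.

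Serine carboxypeptidases are hydrolases with a catalytic serine, aspartate and histidine that remove amino acids from the carboxyl end of peptides and proteins, and most enter the secretory pathway or the vacuole. In plants part of the family has become acyltransferases, which take an acyl group from a glucose ester in place of cutting a peptide. SCPL8, known as SNG1, and SCPL19, known as SNG2, make sinapoylmalate and sinapoylcholine in this way, SCPL17 acts on glucosinolates, and SCPL24, known as BRS1, is a carboxypeptidase found through its effect on the brassinosteroid receptor BRI1. These 4 well-studied members had no named probe set in the tables used and were not analysed here. SOL1, a carboxypeptidase that trims CLE peptides, is a metal enzyme of another family and is not an SCPL gene.

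The RefSeq gene table (TAIR10.1 assembly) held 51 SCPL genes. Besides the 29, there were 3 on probe sets shared by several genes and 19 with no named probe set in the tables used. Coverage was uneven: of the numbers SCPL1 to SCPL19, the group with the acyltransferases, only scpl16 and scpl18 were measured, against 27 genes numbered 20 and above. The probe set shared by scpl36 and scpl37 had signals of 0.8 and 1.1 on the sol2 arrays and 1.2 and 1.0 on the wild type arrays, and the one shared by scpl39 and AT3G56540 had 0.7 and 0.5 in sol2 and 2.1 and 0.5 in wild type. All of these lay within the range of 27 control probe sets for bacterial transcripts, whose signals had a median of 4.35 and reached 34.1 at most.

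Array medians lay between 142.7 and 160.75, and means without the lowest and highest 2% of values were 500.05 to 500.06 on every array. The typical gap between replicate arrays, as the median size of the log2 difference over tested probe sets, was 0.182 in sol2 and 0.294 in wild type. Wild type was also the more variable genotype for 13 of the 16 SCPL genes above the filter (81.2%), as it was for 66.3% of all tested probe sets. The 3' to 5' signal ratio of ubiquitin, a sign of RNA quality, was 2.46 and 2.29 in sol2 and 3.02 and 3.87 in wild type. The pair of actin probe sets with the wider ratios had 11.6 and 36.9 in sol2 and 8.45 and 24.5 in wild type, so it went with the replicate number. The other actin pair had milder ratios, 1.72 and 2.81 in sol2 and 1.81 and 2.3 in wild type, in the same order. For GAPDH the ratio was 0.971 and 1.06 in sol2 and 1.0 and 1.07 in wild type. The part of RNA quality in the results below was not tested.

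Signals were compared on the scale log2(signal + 18.4), and probe sets with a mean of at least 6.62 on that scale, the 40th percentile, were tested with limma. Of the 29 SCPL genes, 16 were above this filter and 13 below it. Among all 13648 tested probe sets, 1.25% were called at an adjusted p under 0.05, 0.945% higher and 0.3% lower in sol2. Of the 16 SCPL genes, 1 was called higher, scpl42, and none was called lower, where 4 had an unadjusted p under 0.05 (25%, limma) against 8.9% of all tested probe sets. For 2 genes, scpl42 and scpl31, every sol2 array exceeded every wild type array at least 2-fold in signal + 18.4. This held for 1.02% of all tested probe sets, and 1.31% were so separated in either direction. With 16 genes these counts are small, and the genes are not independent of each other. The median log2 difference was 0.01 over the 16 genes and 0.0 over all tested probe sets.

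**Figure D1:**
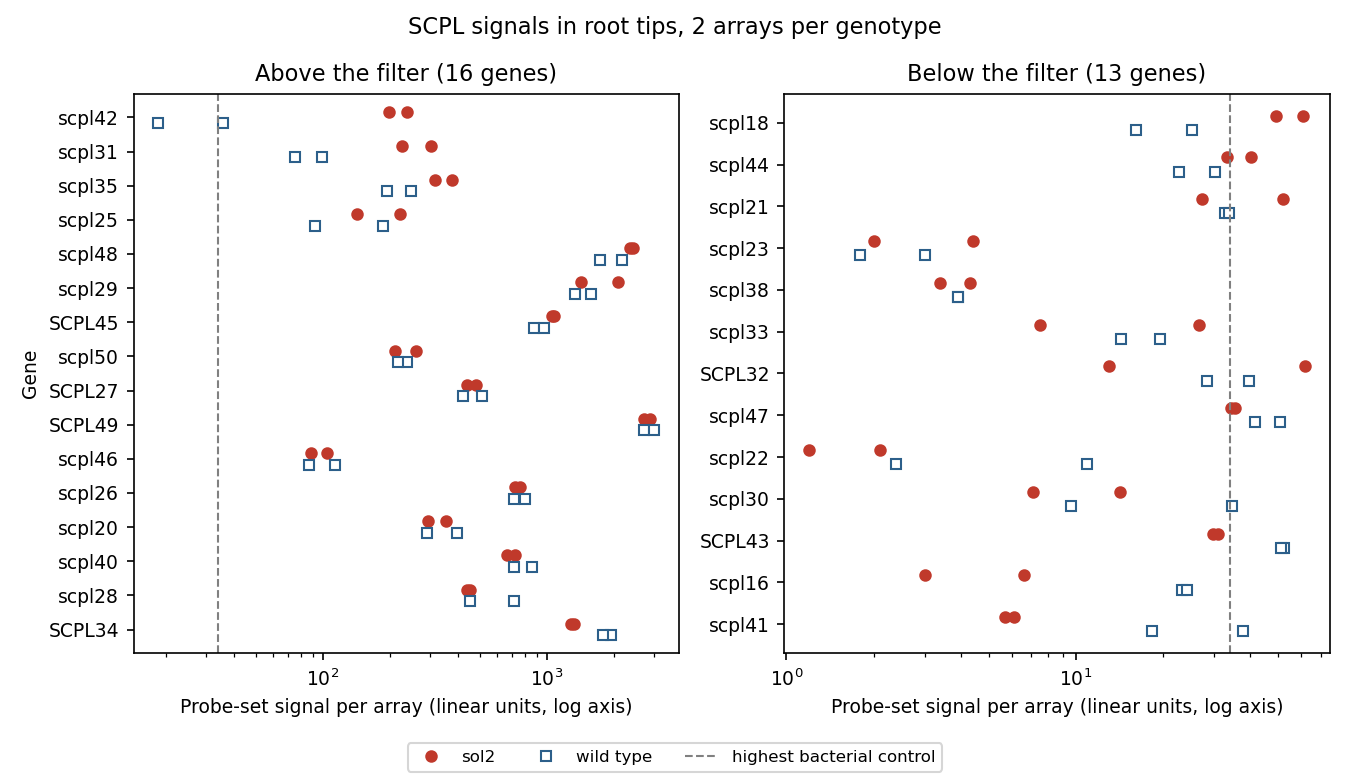
Probe-set signal on each of the 4 arrays (log axis) for the 16 SCPL genes above the filter (left) and the 13 below it (right). Filled circles are the sol2 arrays, open squares the wild type arrays, and the dashed line is the highest bacterial control signal, 34.1. For scpl42 and scpl31 both sol2 arrays stand to the right of both wild type arrays, and most genes of the left panel overlap or nearly touch.

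The gene scpl42 (AT5G42240, chromosome 5) rose in sol2. Its signal was 196.2 and 237.5 on the sol2 arrays, against 35.9 and 18.4 on the wild type arrays. The genotypes did not overlap, and the wild type arrays lay beside the upper end of the bacterial controls, 1 just above 34.1 and 1 below it. The means were 217 ± 29.2 in sol2 and 27.1 ± 12.4 in wild type (SD, n = 2 each), and with the wild type signal under 34.1 set to that level the rise was at least 6.20-fold. The fitted log2 difference was 2.39 ± 0.29 (SE, adjusted p = 0.00782, limma), with a 95% interval of 1.72 to 3.06. In single pairs of arrays signal + 18.4 differed by 3.95-fold to 6.95-fold.

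The call of scpl42 depends on the filter on low values. Its mean on the log2 scale was 6.68, just above the limit of 6.62, and it passed through its signal in sol2, so its place among the 16 genes is not independent of its difference. Without a filter the same log2 difference had an adjusted p of 0.0689, and with the filter at the 60th percentile the gene was not tested. The log2 difference also followed the pseudocount, at 2.96 with the 5th percentile (2.3) and 1.46 with the 40th (80.8). With each array left out in turn it was 2.11 to 2.67. The filter was not reapplied in these fits, so the gene could not drop out of them. Each of them leaves a lone array in a genotype and takes the spread from the other genotype only. They therefore cannot decide whether the call depends on a single array.

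The gene scpl31 (AT1G11080, chromosome 1) had a signal of 303.7 and 224.8 in sol2, against 99.5 and 75.0 in wild type. All 4 values lay above the bacterial controls, and the lower sol2 array was more than 2-fold above the higher wild type array. The means were 264 ± 55.8 in sol2 and 87.2 ± 17.3 in wild type (SD, n = 2 each), a ratio of 3.03. Its log2 difference of 1.42 ± 0.26 (SE, 95% interval 0.81 to 2.02) missed the threshold, with an adjusted p of 0.0512 and an unadjusted p of 0.000673 (limma). On either side of that threshold the call turned on single arrays. Its adjusted p was 0.280 without sol2 replicate 1, with a log2 difference of 1.21. It was 0.0432 without sol2 replicate 2 (log2 1.62), 0.00039 without wild type replicate 1 (log2 1.58) and 0.00275 without wild type replicate 2 (log2 1.25), and in these fits the lone array of a genotype borrows its spread from the other genotype. With the replicate number as a block it passed as well (adjusted p = 3.72e-07), though nothing in the labels pairs the arrays.

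**Figure D2:**
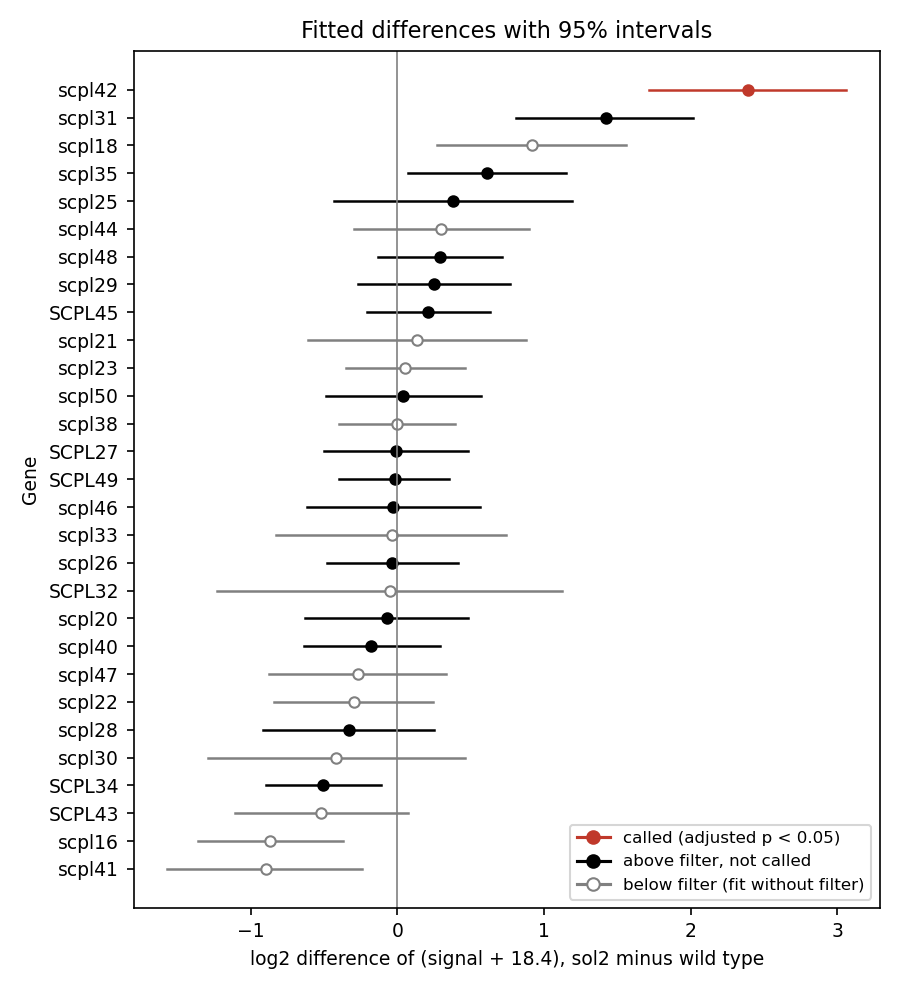
Fitted log2 difference of signal + 18.4, sol2 minus wild type, for the 29 SCPL genes, with 95% intervals from limma. The called gene scpl42 is in red at 2.39, the other genes above the filter are black, and genes below the filter, taken from the fit without a filter, are grey and open.

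A further 2 genes had an unadjusted p under 0.05 and did not pass after adjustment. SCPL34 (AT5G23210) had 1284.9 and 1314.8 in sol2 and 1938.3 and 1773.4 in wild type, without overlap. Its log2 difference was -0.51 ± 0.17 (SE, 95% interval -0.90 to -0.11, adjusted p = 0.352, limma), and with the replicate block its adjusted p was 0.0283. The gene scpl35 (AT5G08260) had 378.5 and 315.2 in sol2 and 248.2 and 193.8 in wild type, also without overlap. Its log2 difference was 0.61 ± 0.23 (95% interval 0.07 to 1.15, adjusted p = 0.446). Both had ratios of means much nearer to 1 than scpl42, at 0.700 for SCPL34 and 1.57 for scpl35.

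The genotypes also stood apart, by less, for SCPL45 and scpl48. SCPL45 had 1079.7 and 1057.0 in sol2 and 879.3 and 965.7 in wild type (log2 0.21 ± 0.18, adjusted p = 0.910, limma). The gene scpl48 had 2337.6 and 2418.6 in sol2 and 2171.7 and 1726.5 in wild type (log2 0.29 ± 0.18, adjusted p = 0.795). In all, the genotypes did not overlap for 6 of the 16 genes (37.5%), which is close to the 36.2% of all tested probe sets. They were higher in sol2 for 5 genes and lower for 1, against 17.5% and 18.6% of all tested probe sets.

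The other 10 genes above the filter had overlapping genotypes. SCPL49, named carboxypeptidase Y in RefSeq after the vacuolar enzyme of yeast, had 2725.9 and 2879.6 in sol2 and 2701.1 and 3006.6 in wild type. Its log2 difference was -0.02, with a 95% interval of -0.40 to 0.35. The gene scpl29 had 1425.1 and 2081.3 in sol2 and 1329.9 and 1574.5 in wild type, so that the sol2 arrays differed from each other by more than the genotype means did (log2 0.25 ± 0.23). Group means in sol2 and wild type were 736 and 756 for scpl26, 461 and 466 for SCPL27, 691 and 785 for scpl40, 324 and 345 for scpl20, 234 and 226 for scpl50, and 96.5 and 99.5 for scpl46. None of these 6 had a log2 difference larger in size than 0.18.

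In the 2 remaining genes, array spread in wild type was wide. The gene scpl25 had 141.5 and 221.3 in sol2 and 91.8 and 185.9 in wild type. Its log2 difference of 0.38 had a 95% interval of -0.43 to 1.19, and in both genotypes replicate 2 was the higher array. The gene scpl28 had 454.2 and 439.7 in sol2 and 710.7 and 451.8 in wild type, so its log2 difference of -0.33 rested on wild type replicate 1 and was -0.02 without that array. Over the 12 genes with an unadjusted p of 0.05 or more, log2 differences ran from -0.33 to 0.38 with adjusted p between 0.795 and 0.995 (limma). Their 95% intervals reached from -0.92 to 1.19 at the widest, and the end at 1.19, that of scpl25, leaves room for a change of more than 2-fold. Differences under 0.3 in size were found for 10 of the 16 genes (62.5%) and for 72.1% of all tested probe sets.

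**Figure D3:**
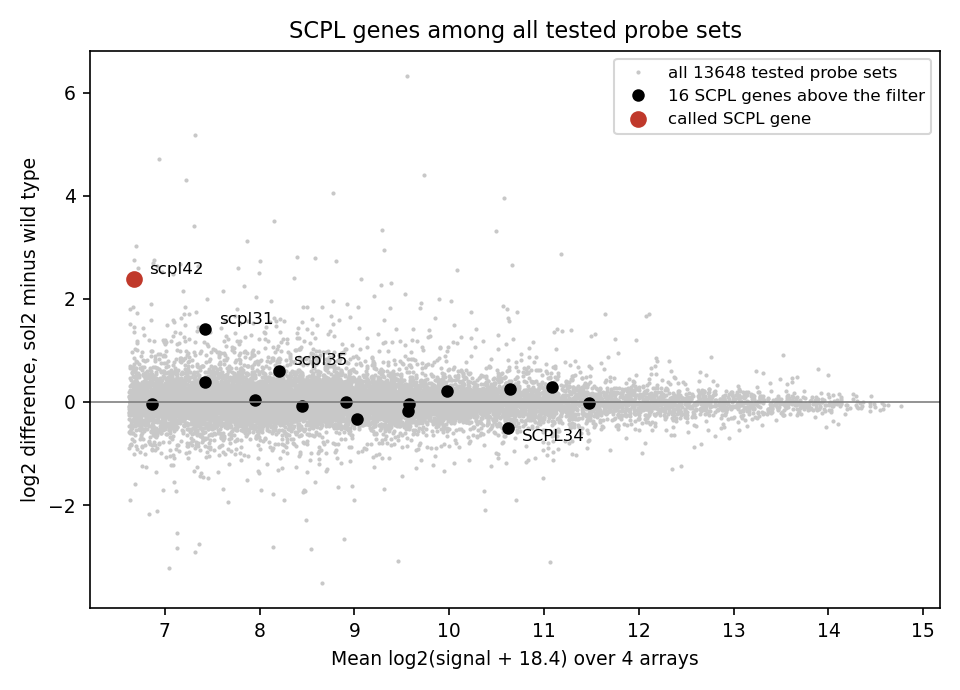
Log2 difference, sol2 minus wild type, against the mean of log2(signal + 18.4) over the 4 arrays, for all 13648 tested probe sets (grey) and the 16 SCPL genes above the filter (black, with the called gene in red). The gene scpl42 stands at the lower end of the tested signal range, with a mean of 6.68, and apart from scpl42, scpl31, scpl35 and SCPL34 the SCPL genes lie between -0.33 and 0.38.

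The 13 genes below the filter were fitted together with all other probe sets in a fit without a filter. None was called there, with adjusted p between 0.244 and 0.998 (limma), where 69 of all 22746 probe sets were called. For 3 of the 13 the unadjusted p was under 0.05, against 8.83% of all probe sets. For 7 of the 13 the genotypes did not overlap, against 36.3% of all probe sets. Of the 13 genes, 5 had all 4 signals within the range of the bacterial controls (scpl16, scpl22, scpl23, scpl33 and scpl38), and their differences have no direction that can be read from these arrays.

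Both measured genes of the group numbered SCPL1 to SCPL19 were among these 13. The gene scpl18 (AT1G33540) had 49.0 and 60.8 in sol2 and 16.1 and 25.1 in wild type, so both sol2 arrays were above the bacterial controls and both wild type arrays within them. Its mean signal in sol2 was at least 1.61-fold that of wild type (log2 0.92 ± 0.26, unadjusted p = 0.014, adjusted p = 0.350 without a filter, limma). The gene scpl16 (AT3G12220) had 3.0 and 6.6 in sol2 and 23.3 and 24.2 in wild type, all within the range of the controls (unadjusted p = 0.00564, adjusted p = 0.244).

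Among the others, SCPL43 had 29.8 and 30.9 in sol2 and 52.3 and 50.9 in wild type, with both sol2 arrays within the control range (adjusted p = 0.639 without a filter, limma). The gene scpl47 had 35.4 and 34.2 in sol2 and 41.7 and 50.5 in wild type, all of them above it. The gene scpl44 had 40.1 and 33.3 in sol2 and 30.2 and 22.7 in wild type. These 3 genes had no overlap between genotypes and no call. For SCPL32 the sol2 arrays read 61.8 and 13.0 and the wild type arrays 28.3 and 39.6, the widest gap between replicate arrays among the 29 genes, at 1.35 on the log2 scale. For scpl21 the values were 27.2 and 52.1 in sol2 and 32.8 and 33.7 in wild type, and for scpl30 they were 7.1 and 14.2 in sol2 and 9.6 and 34.5 in wild type.

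The annotated gene order places several SCPL genes side by side. Of the pairs of family members with at most 3 coding genes between them, 3 had both members measured. One of them joins scpl42 and scpl41 (AT5G42230), with 2 coding genes between them. The gene scpl41 had 6.1 and 5.7 in sol2 and 37.9 and 18.3 in wild type, where only wild type replicate 1 was above the bacterial controls. It was not called in the fit without a filter (unadjusted p = 0.0163, adjusted p = 0.375, limma), and with 3 of 4 arrays within the control range no fold is given. In the adjacent pair scpl26 and scpl28 neither gene passed the test, and the adjacent genes scpl22 and scpl23 had signals between 1.2 and 10.9 on all arrays.

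The surroundings of scpl42 and scpl31, chosen after their values were seen, held no other called gene among those above the filter, where 1.25% of all tested probe sets were called, so with so few genes the count says nothing about the neighbourhood. Among the 20 coding genes on each side of scpl42, 20 had a named probe set and 11 were above the filter. Their log2 differences lay between -0.39 and 0.39, with a median of -0.08. Around scpl31, 20 of the 40 neighbours had a named probe set and 11 were above the filter, with log2 differences between -0.87 and 0.45 and a median of 0.06. The nearest neighbour above the filter was AT5G42250 for scpl42, with 1174.1 and 870.9 in sol2 and 1260.7 and 902.0 in wild type, and AT1G11090 for scpl31, with 226.8 and 236.0 in sol2 and 289.5 and 273.7 in wild type.

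**Figure D4:**
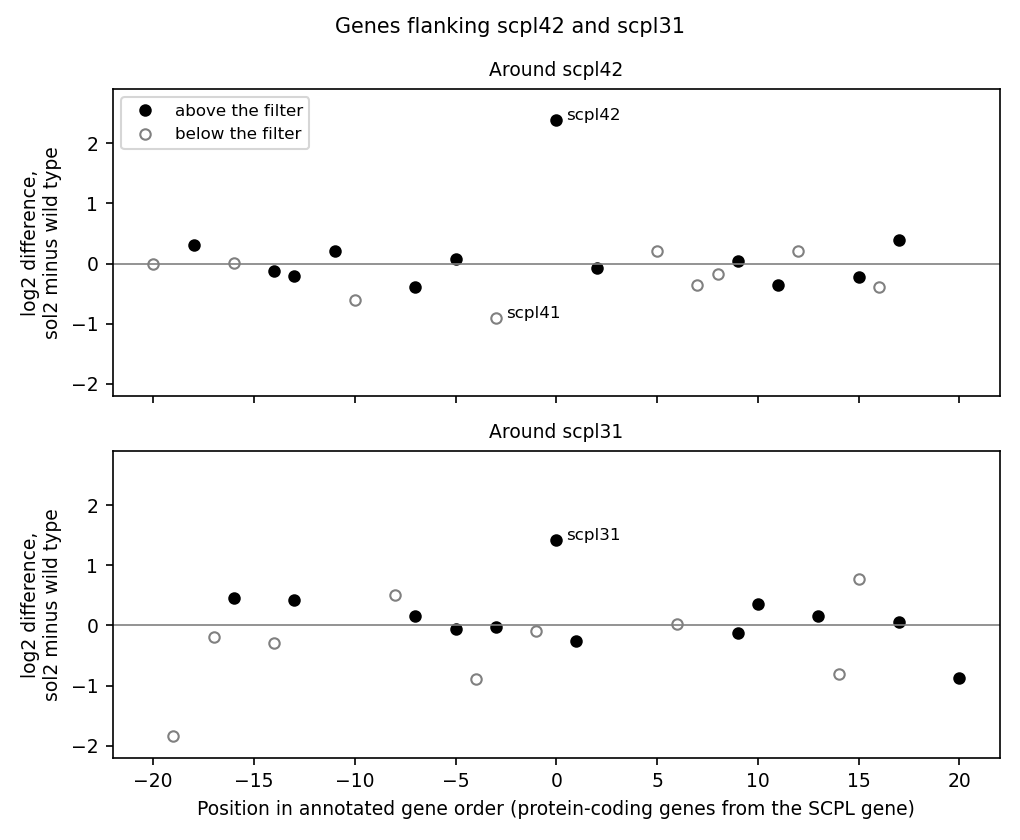
Log2 difference, sol2 minus wild type, of genes with a named probe set within 20 coding genes on each side of scpl42 (top) and scpl31 (bottom), by position in the annotated gene order. Filled points are above the filter and open points below it. The difference of 2.39 at scpl42 and that of 1.42 at scpl31 stand above those of all flanking genes shown. In size, that of scpl31 is exceeded by the -1.83 of its neighbour AT1G10875, which is below the filter.

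A list of 22 genes of phenylpropanoid and sinapate ester synthesis was followed. It held enzymes that make substrates of the SCPL acyltransferases, other enzymes of the pathway, and SNG1 and SNG2 themselves. Of the 22 genes, 5 had a named probe set, all above the filter, and none rose or fell in the test (1.25% of all tested probe sets did). UGT84A1, which forms glucose esters of hydroxycinnamic acids, had means of 221 in sol2 and 319 in wild type (log2 -0.47 ± 0.26, adjusted p = 0.740, limma). UGT84A3, of the same group of glucosyltransferases, had 195 in sol2 and 261 in wild type (log2 -0.38 ± 0.23, adjusted p = 0.795). The median log2 difference of the 5 was -0.03, against 0.0 over all tested probe sets. None of 10 listed genes of brassinosteroid synthesis and signalling had a named probe set in the tables used.

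Cell type markers were measured in the same fit. Of 8 root meristem markers only JKD, a transcription factor of the ground tissue, had a named probe set, with means of 165 in sol2 and 163 in wild type. The root tip label could therefore be checked against few genes. The root cap gene RCPG, the 1 of 4 root cap markers with a probe set, had 576 and 631 in sol2 and 286 and 516 in wild type (adjusted p = 0.599, limma). The summed signal of 4 of 6 root hair markers was 9930 and 8290 in sol2 and 12300 and 8490 in wild type, and none of them passed. The sum joins genes of both directions, 3 lower in sol2 and 1 higher. PRX44 had means of 2040 in sol2 and 3940 in wild type (log2 -0.89, adjusted p = 0.238, limma). The higher gene, PRX7, had 4460 in sol2 and 3290 in wild type (log2 0.45, adjusted p = 0.629). Of 2 measured vascular markers of 6, the sucrose exporter SWEET11 fell (46.8 in sol2, 418 in wild type, adjusted p = 0.00782, and 0.0725 without a filter) and IRX10 did not pass (401 in sol2, 383 in wild type, log2 0.08). The summed signal of these 2 genes was 476 and 420 in sol2 and 953 and 648 in wild type, and SWEET11 alone made the sum lower in sol2. For 2 of 5 photosynthesis markers, RCA and PSBW, the sums were 255 and 242 in sol2 and 365 and 383 in wild type. Neither was called. RCA had 183.7 and 147.8 in sol2 and 296.5 and 251.3 in wild type, without overlap (log2 -0.67, adjusted p = 0.372, limma). PSBW overlapped, with 71.2 and 94.3 in sol2 and 68.9 and 131.9 in wild type (log2 -0.19). None of 4 listed seed genes (CRA1, CRC, OLEO1 and SESA4) had a named probe set. In root tips taken whole, fewer cells of a type and less RNA per cell cannot be told apart, and the part of cell composition in the difference of scpl42 was not tested.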

How the data were processed

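The authors deposited 1 intensity per probe set and array on a linear scale. Per the submitters' processing notes it came from GCOS, and the sources used here do not give its algorithm or scaling target. Of 22810 probe sets, 64 controls were left out of the tests. The platform annotation named 1 gene for 13513 of the rest, several genes for 503 and none for 8730. Symbols and gene order came from RefSeq (TAIR10.1).

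No further normalization was applied. Signals were transformed as log2(signal + 18.4), with 18.4 the 20th percentile of all values, so fold changes of dim genes are understated. Genotypes were compared with limma 3.58.1, run in R 4.3.3 (lmFit, eBayes with an intensity trend, two-sided, genotype only), adjusted by Benjamini-Hochberg over all 13648 probe sets above the filter; genes below it came from the same fit without a filter. The fit was tested on simulated data with independent noise of equal spread on all arrays. That setting holds neither the wider spread in wild type nor the pattern shared by replicate number, so it does not cover them. Tables and figures were made with Python 3.11.15, pandas 2.3.3, numpy 2.4.6, scipy 1.17.1 and matplotlib 3.10.9.

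The labels do not say that replicates came from separate cultures, so p-values reflect only how far these arrays scatter, which could be technical, and 2 arrays per genotype limit the precision. An exact two-sided permutation test of 2 against 2 arrays cannot give a p below 0.333 and was not used. Every SCPL gene was named, with array values at least for those called, with an unadjusted p under 0.05, or among the 6 largest differences or 4 highest signals above the filter. Of the pathway lists, called members or the 2 largest differences were named. The genes and lists were chosen with earlier results of these data known. Alternatives covered normalization, pseudocount, filter, prior variance, the threshold, a replicate block and each array left out.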

Additional observations from a re-analysis of the deposited data

How the results depend on the processing

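The rise of scpl42 kept its direction in all 12 alternatives that tested it. Its call held in 11, all of which kept the probe sets tested in the reported fit, so the gene could not drop out of them. Among these, the fits with an array left out take the spread from the other genotype only and cannot decide the call. Neither change of the filter kept the call: it ended without a filter, and the 60th-percentile filter left scpl42 untested. SCPL genes called higher in sol2 numbered 1 as reported, 2 with the 40th-percentile pseudocount, a prior variance without trend, the replicate block or an adjusted p under 0.10, and 0 without a filter or with the 60th-percentile filter. None was called lower except 1, SCPL34, with the replicate block. The second gene was scpl31 each time. The number of SCPL genes at least 2-fold apart in all pairs of arrays was 2, and 1 with quantile normalization, equal array medians or the 40th-percentile pseudocount; the 60th-percentile filter left 0, since it removes both genes from the test. Over all probe sets, 60 were higher and 9 lower without a filter, 68 and 15 with the 60th-percentile filter, 199 and 78 at an adjusted p under 0.10, and 660 and 462 with the replicate block, where the reported counts are 129 and 41. With arrays left out in turn, SCPL genes called higher ranged from 1 to 2, and over all probe sets from 107 to 876 were higher and from 46 to 549 lower, highest without wild type replicate 2. The stricter filter tested 9099 probe sets, against 13648 in the reported fit. The causes of these differences were not tested. The median log2 difference of all 29 SCPL genes was -0.02 and stayed between -0.06 and 0.09. The log2 differences of 8 of the 16 genes above the filter and of 6 of the 13 below it changed sign under some alternative, never with a call. The labels do not pair the arrays by replicate number. Across the tested probe sets, which are not independent, replicate 1 minus replicate 2 in sol2 correlated with the same quantity in wild type at r = 0.441. No SCPL gene had a second probe set, so the alternative of another probe set per gene gave no value.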
